A study of Mus musculus with 6 samples.

Results

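DNA repair was followed through 46 genes in mouse neural stem cells, which divide in culture and can give rise to neurons and glia. The genes were the entries of the deposited expression table whose symbol equals a member of a fixed list. All 46 had an entry among the 54884 of the table. All 46 also passed the filter on low values, a mean of at least 1 FPKM over the libraries, which 13702 entries passed. They were grouped by role into 7 translesion synthesis genes, 9 homologous recombination genes, 6 Fanconi anaemia genes, 3 mismatch repair genes, 9 excision and single-strand break repair genes, 5 end joining genes and 7 genes of damage sensing and checkpoint signalling.

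The cells came from the hippocampus of C57BL/6 mouse embryos at day 14 of gestation and were grown in culture. Both groups received a lentivirus, which carried either an siRNA against circHIPK2, a circular transcript of Hipk2, or the control siRNA circCon. There were 3 libraries in each group, of polyadenylated RNA sequenced from both ends. The labels do not say whether the libraries of a group came from separate cultures, so the p-values speak only of how far these libraries differ among themselves, in part perhaps for technical reasons.

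Cells repair different lesions by different routes. Excision repair and mismatch repair cut out damaged or mispaired bases and refill the gap from the intact strand. Breaks through both strands are rejoined directly by end joining or copied from the sister chromatid by homologous recombination, and the Fanconi anaemia pathway frees strands that are crosslinked to each other. Translesion polymerases copy past a lesion that blocks the replicative polymerases, at the price of errors. In the developing nervous system, where progenitors divide rapidly, inherited defects in several of these routes cause small brain size or loss of neurons.

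The measured quantity was FPKM, fragments mapped to a transcript per kilobase of its length, scaled to the size of the library. That size was estimated at about 18440000 to 21980000 fragments per library from the steps between low values, within a fixed search range. At these depths 1 fragment of a transcript 1 kb long is worth 0.0455 to 0.0542 FPKM. All 10 neural stem cell markers, among them Nes and Sox2, passed the filter, with sums of 1951 to 2498 FPKM in control and 1765 to 2226 FPKM in siRNA libraries. None of the 5 microglial and 6 endothelial or mesenchymal markers passed it, and Cx3cr1 and Ptprc were listed at 0 in every library. All 6 oligodendrocyte lineage markers and all 4 astrocyte markers passed the filter. They summed to 606 to 822 FPKM and to 140 to 348 FPKM over the 6 libraries. Several facts of the libraries moved with the groups. A set of 9 ribosomal RNA entries (those at that locus, or high in the same libraries) held 0.321% to 0.58% of all FPKM in control libraries, and 11.5%, 3.24% and 19.9% of it in the siRNA libraries, in the order 1 to 3. Because FPKM is a share of the library, a larger share for these entries leaves less for all others. A liver list summed to 55.1 to 80.6 FPKM in control and 15.6 to 18.0 FPKM in siRNA libraries. The neuron list summed to 125 to 136 FPKM in control and 96.9 to 111 FPKM in siRNA libraries. In 4 of its 5 tested genes every siRNA library lay below every control library, as in 22.1% of all entries tested. The part of these differences between libraries in the results below was not tested.

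Of the 46 genes, 1 was called lower with circHIPK2 siRNA and 0 were called higher at an adjusted p below 0.05 (limma with the Benjamini-Hochberg method over all 13702 entries). The gene called was Mad2l2. Over all entries tested, 0.139% were called lower and 0.117% higher. Of the 19 called lower, 10 were of the liver list, and of the 16 called higher, 8 were of the ribosomal RNA set. That set was chosen in part for high values in these same libraries. Without adjustment, p was below 0.05 for 11 of the 46 genes on the lower side and for 0 on the higher side, where 15.5% and 1.83% of all entries passed. The log2 fold changes, on the log2(FPKM + 1) scale, ran from −0.96 for Mad2l2 to 0.23 for Polk, with a median of −0.16. They were below 0 for 41 of the 46 genes and for 77.1% of all entries, but for 29 of the 46 under median-of-ratios scaling and 22 of the 46 after the ribosomal RNA entries were removed. The median of all entries tested was −0.12, and 26 of the 46 genes lay below it. In 10 genes every siRNA library lay below every control library (21.7%), and in 0 every siRNA library lay above. The same held for 22.1% and 2.65% of all entries, so the share of DNA repair genes with separated libraries was near the background.

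**Figure D1:**
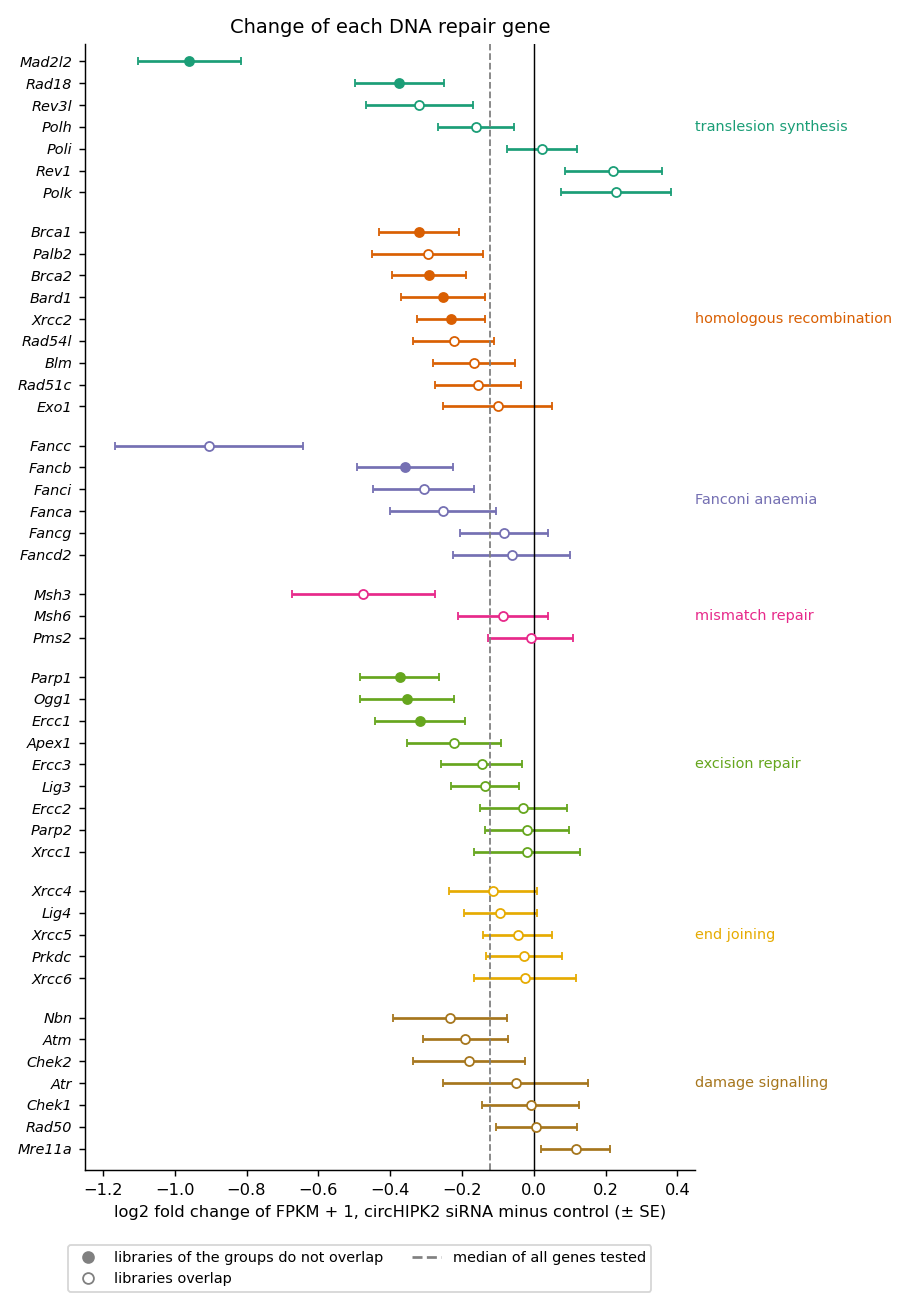
Log2 fold change of each of the 46 genes (siRNA minus control, log2(FPKM + 1) scale) with its standard error, grouped by role, with filled points where the libraries of the groups do not overlap and a dashed line at the median of all entries tested. Mad2l2, at −0.96, and Fancc, at −0.91, stand apart from the others, of which all lie between −0.47 and 0.23.

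The genes differed widely in level. The mean over the 6 libraries ran from 1.09 FPKM for Palb2 to 31.6 FPKM for Parp1, with a median of 5.09 FPKM against 8.67 FPKM over all entries tested. In fragments, taking the longest coding transcript of each gene, Fancc rested on about 19 to 189 fragments per library, Fancb on 44 to 102 and Palb2 on 57 to 125. Mad2l2 rested on about 207 to 630 fragments. In this bulk RNA, fewer cells of a kind and less RNA per cell cannot be told apart.

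**Figure D2:**
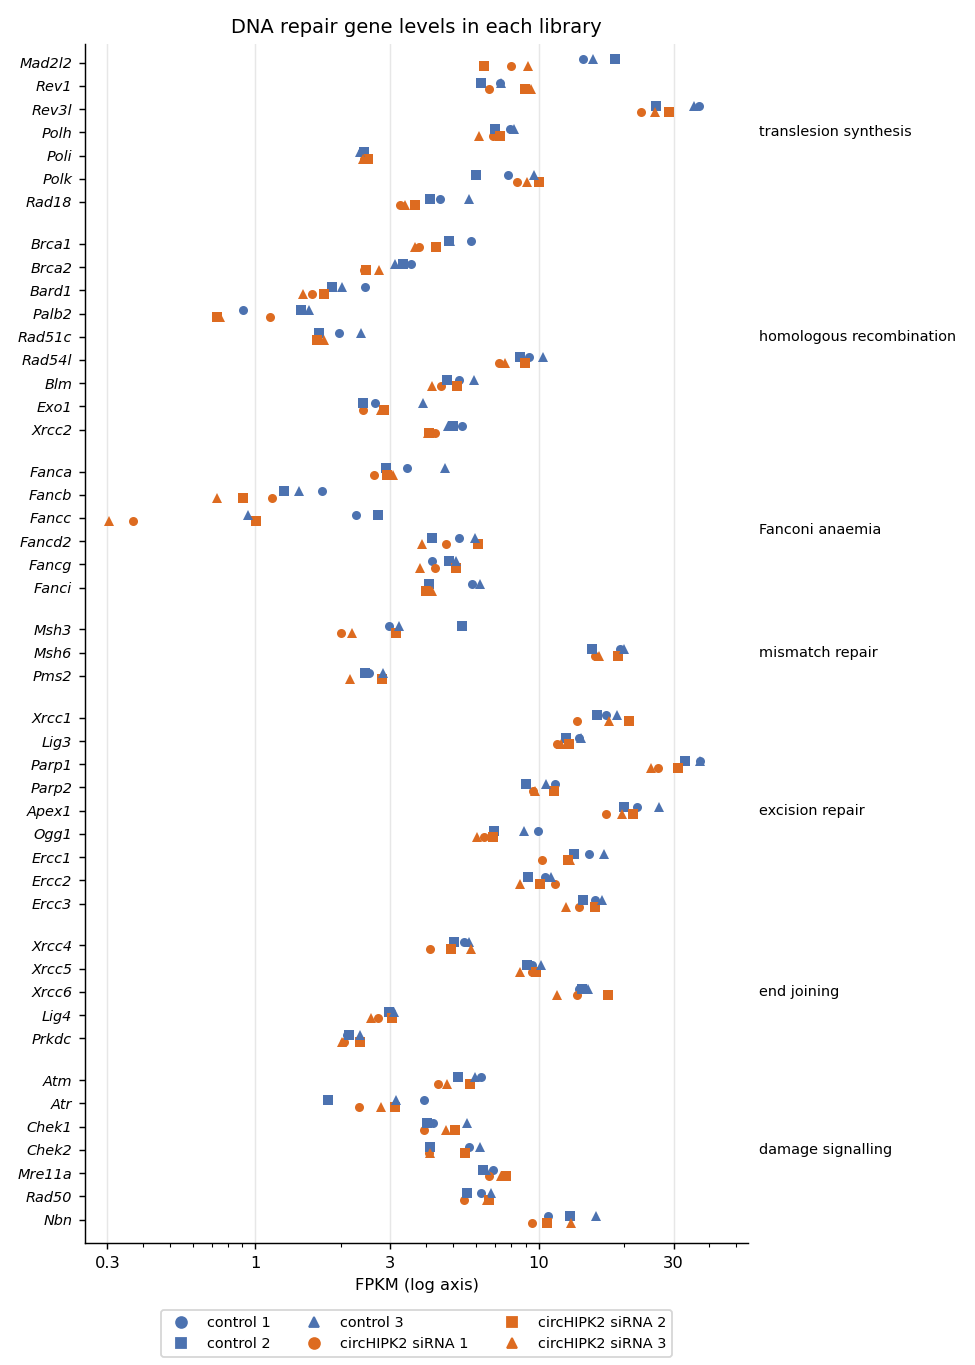
FPKM of the 46 genes in each of the 6 libraries on a log axis, grouped by role, with control and circHIPK2 siRNA libraries marked apart. Levels run from Palb2 at a mean of 1.09 FPKM to Parp1 at 31.6 FPKM, and the groups overlap in 36 of the 46 genes.

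Translesion synthesis held the 1 gene called. Mad2l2, also known as Rev7, is the subunit that joins the catalytic subunit of polymerase zeta to Rev1, and it also belongs to the shieldin complex, which protects broken ends from resection. The control libraries, here and below in the order 1 to 3, held it at 14.3, 18.7 and 15.6 FPKM, and the siRNA libraries at 8.03, 6.41 and 9.16 FPKM. Every siRNA library lay below every control library, with a wide gap between the groups. The means were 16.2 ± 2.25 FPKM in control and 7.87 ± 1.38 FPKM with siRNA (SD, n = 3 each), and the ratio of the means was 2.06. Mad2l2 fell by 0.96 on the log2 scale (SE 0.14, adjusted p = 0.0489, limma with the Benjamini-Hochberg method). The exact two-sided permutation test gave p = 0.1, the smallest that 3 against 3 libraries allow. The adjusted p was close to the threshold. The call was lost when any of the 6 libraries was left out (adjusted p 0.0673 to 0.132), and held in 5 of the 18 other settings. The direction was the same in all 18, with log2 fold changes from −1.06 to −0.77.

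**Figure D3:**
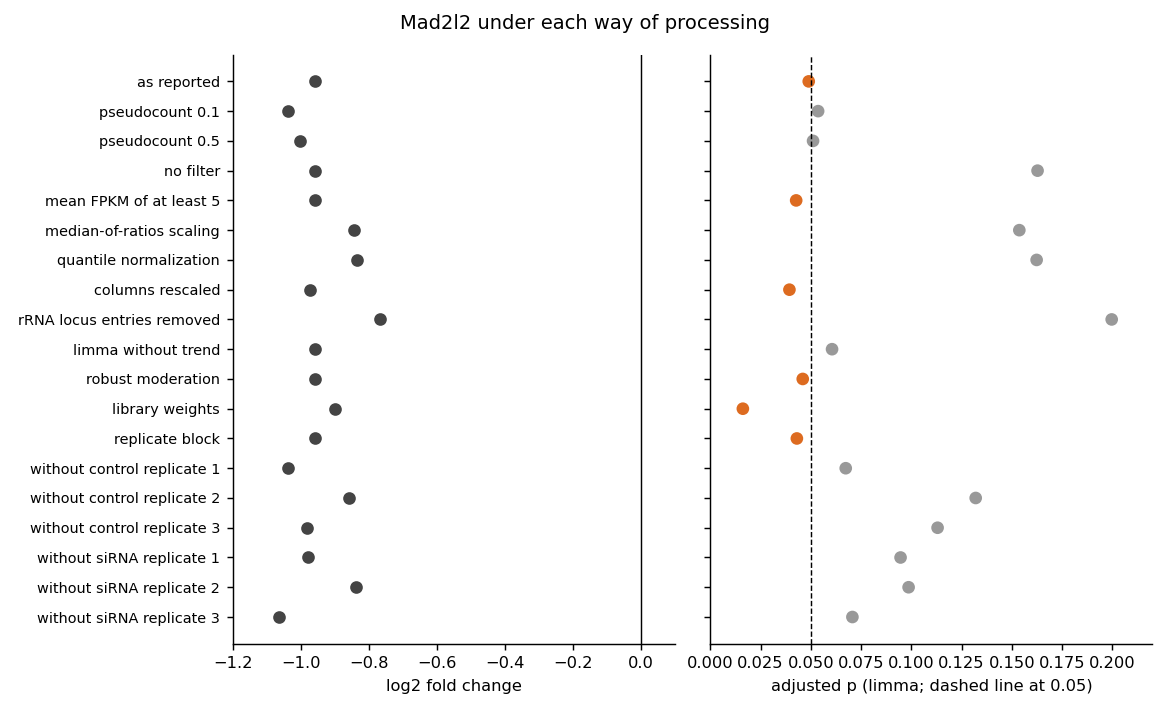
Log2 fold change of Mad2l2 (siRNA minus control) under the main setting and the 18 others, with the adjusted p (limma, Benjamini-Hochberg) of each. All values lie between −1.06 and −0.77, and adjusted p runs from 0.0161 to 0.2 around the threshold of 0.05.

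Ratios within a library do not depend on how the libraries were scaled. The ratio of Mad2l2 to Rev3l was 0.389, 0.719 and 0.440 in control and 0.350, 0.222 and 0.357 in siRNA libraries. The groups did not overlap, but siRNA library 3 was close to control library 1. The ratio of Mad2l2 to Rev1 was 1.95, 2.98 and 2.12 in control and 1.20, 0.714 and 0.973 in siRNA libraries, a wider separation. Mad2l2 made up 3.61%, 5.25% and 3.70% of the summed FPKM of the 46 genes in control libraries and 2.55%, 1.73% and 2.79% in siRNA libraries. Each of the 3 measures separated the groups, and control library 2 stood highest in each. All 3 use the same Mad2l2 values that led to the call, so they are not separate support for it.

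Mad2l2 starts head to head with Draxin, the gene of a secreted axon guidance protein on the opposite strand. The 216 bases between the first exons of Draxin and of a Mad2l2 transcript are shown because Draxin and this transcript start at its ends. Other Mad2l2 transcripts start further downstream, where the table has a second window, not shown, with the GC box and CCAAT. They lie at chr4:148130699-148130914 (RefSeq promoter table, GRCm38.p6, plus strand, 5′ to 3′), with the GC box GGGCGG on either strand in capitals.
Mad2l2: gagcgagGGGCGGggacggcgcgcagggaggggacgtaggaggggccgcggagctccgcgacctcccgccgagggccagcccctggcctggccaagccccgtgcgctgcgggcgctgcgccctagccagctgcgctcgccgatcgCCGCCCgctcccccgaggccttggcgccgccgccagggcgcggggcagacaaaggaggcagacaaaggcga
The stretch holds the GC box once on each strand. Searched on both strands of the 250 bases before each annotated start, this motif was in 69.8% of the 43 windows of the DNA repair genes, in 59% of the windows of all genes tested and in 32.7% of all windows in the table. The exons of Draxin and Mad2l2 share no base in GENCODE M21. Draxin was at 5.65, 5.73 and 6.12 FPKM in control and 4.05, 4.50 and 3.48 FPKM in siRNA libraries. Its libraries did not overlap either, but it was not called, with a log2 fold change of −0.45 (SE 0.11, adjusted p = 0.155). On the other side of Mad2l2 lies Fbxo6, which encodes a substrate-binding part of a ubiquitin ligase. It had a log2 fold change of 0.13 (SE 0.12, adjusted p = 0.575), and its libraries overlapped.

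The partners of Mad2l2 among the 46 genes, Rev3l and Rev1, did not pass the test. Its partners outside the 46 are not given here. Rev3l, the catalytic subunit of polymerase zeta, was at 36.8, 26.0 and 35.4 FPKM in control and 22.9, 28.95 and 25.7 FPKM in siRNA libraries (32.7 ± 5.88 against 25.9 ± 3.02, SD, n = 3 each). Control library 2 lay within the siRNA range, and the log2 fold change was −0.32 (SE 0.15, adjusted p = 0.31). Rev1, a cytidyl transferase that gathers the other translesion polymerases, was at 7.33, 6.28 and 7.35 FPKM in control and 6.71, 8.99 and 9.42 FPKM in siRNA libraries. Its siRNA mean was the higher, with means of 6.98 ± 0.612 and 8.37 ± 1.46 FPKM (SD, n = 3 each) and a log2 fold change of 0.22 (SE 0.13, adjusted p = 0.402). Rev1 shares 1643 exon bases with Eif5b on the opposite strand, and whether the counting used strand is not given.

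Rad18, the ubiquitin ligase that marks the sliding clamp and so calls translesion polymerases to a stalled fork, was at 4.49, 4.14 and 5.69 FPKM in control and 3.23, 3.67 and 3.38 FPKM in siRNA libraries. The groups did not overlap, but Rad18 was not called, at −0.37 on the log2 scale (SE 0.12, adjusted p = 0.21). The lesion-bypass polymerases of the Y family showed no separated libraries in the deposited values. Polk, which bypasses bulky adducts of guanine, was at 7.80, 6.01 and 9.62 FPKM in control and 8.40, 10.0 and 9.14 FPKM in siRNA libraries, with a log2 fold change of 0.23 (SE 0.15, adjusted p = 0.444). Polh, which copies past ultraviolet photoproducts, was at 7.93, 7.01 and 8.20 FPKM in control and 6.90, 7.31 and 6.16 FPKM in siRNA libraries. Poli was the steadiest of the group, between 2.35 and 2.49 FPKM in all 6 libraries.

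**Figure D4:**
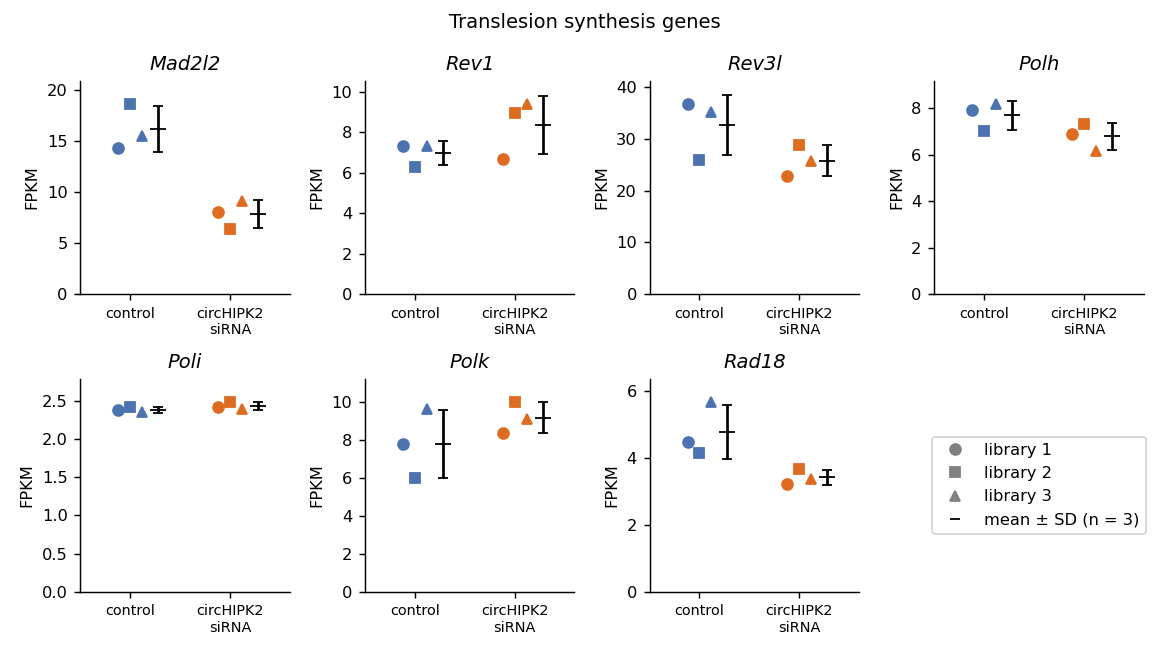
FPKM of the 7 translesion synthesis genes in each control and circHIPK2 siRNA library, with group means and SD (n = 3 each). Mad2l2 shows separated groups at means of 16.2 and 7.87 FPKM, Rad18 shows separated groups at 4.78 and 3.43 FPKM, and the other 5 genes overlap.

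In homologous recombination all 9 genes had a negative log2 fold change, from −0.32 to −0.10 with a median of −0.23, as 9 did under median-of-ratios scaling and 7 after removal of the ribosomal RNA entries. Of the 9, 8 lay below the median of all entries. None was called, and 4 of the 9 had separated libraries on the lower side, where 22.1% of all entries did. Brca1, the tumour suppressor that promotes repair of breaks by recombination, was at 5.79, 4.84 and 4.85 FPKM in control and 3.79, 4.35 and 3.65 FPKM in siRNA libraries. The means were 5.16 ± 0.547 and 3.93 ± 0.371 FPKM (SD, n = 3 each), and the log2 fold change was −0.32 (SE 0.11, adjusted p = 0.222, limma with the Benjamini-Hochberg method). Its groups stayed apart under median-of-ratios scaling and after the ribosomal RNA entries were removed. Bard1, the partner that forms the ubiquitin ligase with Brca1, was at 2.43, 1.87 and 2.02 FPKM in control and 1.58, 1.75 and 1.48 FPKM in siRNA libraries. The ratio of Brca1 to Bard1 was nearly the same in all libraries, at 2.46 ± 0.114 in control and 2.45 ± 0.0457 with siRNA (SD, n = 3 each, exact permutation p = 1).

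Brca2, a tumour suppressor that acts at resected DNA ends, was at 3.54, 3.31 and 3.12 FPKM in control and 2.41, 2.45 and 2.73 FPKM in siRNA libraries. Xrcc2, another gene of strand exchange, was at 5.38, 5.00 and 4.80 FPKM in control and 4.30, 4.12 and 4.06 FPKM in siRNA libraries. Both had separated libraries, with log2 fold changes of −0.29 (SE 0.10, adjusted p = 0.226) and −0.23 (SE 0.09, adjusted p = 0.269). Rad54l, a DNA motor protein and the most abundant of these genes, was at 9.27, 8.63 and 10.4 FPKM in control and 7.25, 8.97 and 7.60 FPKM in siRNA libraries. Its groups overlapped through control library 2 and siRNA library 2, and the log2 fold change was −0.22 (SE 0.11, adjusted p = 0.338). Rad54l shares 1184 exon bases with Lrrc41 on the opposite strand. Palb2, which links Brca1 to Brca2, was at 0.907, 1.45 and 1.55 FPKM in control and 1.13, 0.732 and 0.750 FPKM in siRNA libraries, so control library 1 lay within the siRNA range. Rad51c, the helicase Blm and the nuclease Exo1 also had overlapping groups, with all values between 1.65 and 5.93 FPKM.

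Among the 6 Fanconi anaemia genes the log2 fold changes ran from −0.91 to −0.06, with a median of −0.28. All 6 were negative here, and 4 were negative under median-of-ratios scaling and after removal of the ribosomal RNA entries. None was called. Of the 6, Fancb alone had separated libraries, on the lower side, where 22.1% of all entries did. Fancc, a subunit of the core complex that ubiquitinates the pathway's central pair of proteins, was at 2.26, 2.72 and 0.943 FPKM in control and 0.370, 1.01 and 0.304 FPKM in siRNA libraries. Control library 3 lay below siRNA library 2, so the groups overlapped. The means were 1.97 ± 0.922 and 0.561 ± 0.389 FPKM (SD, n = 3 each), a ratio of 3.52, and the log2 fold change was −0.91 (SE 0.26, adjusted p = 0.189, limma with the Benjamini-Hochberg method). With a pseudocount of 0.1 the log2 fold change of Fancc was −1.68, beyond the −1.04 of Mad2l2. Under median-of-ratios scaling the values were −0.85 for Fancc and −0.84 for Mad2l2. Fancc also shares 1373 exon bases with Gm16133 on the opposite strand. The ratio of means of Fancc was larger than that of Mad2l2, on fewer fragments and with a wider spread among the controls.

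Fancb, another core complex subunit, was at 1.72, 1.26 and 1.43 FPKM in control and 1.15, 0.908 and 0.730 FPKM in siRNA libraries, with a log2 fold change of −0.36 (SE 0.13, adjusted p = 0.24). The central pair that the core complex ubiquitinates did not separate. Fancd2 was at 5.25, 4.20 and 5.96 FPKM in control and 4.73, 6.11 and 3.88 FPKM in siRNA libraries, and the highest value of all 6 was in siRNA library 2. Its log2 fold change was −0.06 (SE 0.16, adjusted p = 0.86) and turned positive under several other scalings. Fanci was at 5.80, 4.10 and 6.22 FPKM in control and 4.07, 4.02 and 4.20 FPKM in siRNA libraries, with control library 2 inside the siRNA range. Fanca, at 2.62 to 4.68 FPKM, and Fancg, at 3.80 to 5.12 FPKM, both core complex subunits, overlapped as well.

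None of the 3 mismatch repair genes was called or had separated libraries. Msh3, which recognises small loops in the helix, was at 2.97, 5.35 and 3.22 FPKM in control and 2.00, 3.14 and 2.19 FPKM in siRNA libraries. Its mean of 3.85 ± 1.31 FPKM in control, against 2.44 ± 0.613 with siRNA (SD, n = 3 each), was raised by control library 2. The log2 fold change was −0.47 (SE 0.20, adjusted p = 0.277), and −0.26 without that library. Msh6, which recognises single mispaired bases and was the most abundant of these genes, was at 19.3, 15.4 and 20.1 FPKM in control and 15.8, 19.1 and 16.3 FPKM in siRNA libraries. Its log2 fold change was −0.09 (SE 0.13, adjusted p = 0.725), and it was positive under median-of-ratios scaling, at 0.03. Pms2, part of the nuclease that nicks the strand to be replaced, lay between 2.16 and 2.82 FPKM in all libraries.

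Excision and single-strand break repair included the most abundant gene of the 46, and none of its 9 genes was called. On the lower side 3 of the 9 had separated libraries, near the 22.1% of all entries. Parp1, the enzyme that senses strand breaks and marks them with poly(ADP-ribose), was at 37.1, 32.9 and 37.2 FPKM in control and 26.4, 31.0 and 25.0 FPKM in siRNA libraries. The means were 35.8 ± 2.47 and 27.4 ± 3.16 FPKM (SD, n = 3 each), and the log2 fold change was −0.37 (SE 0.11, adjusted p = 0.191, limma with the Benjamini-Hochberg method). Its paralog Parp2 was at 11.5, 9.0 and 10.7 FPKM in control and 9.57, 11.4 and 9.70 FPKM in siRNA libraries and overlapped. Ogg1, the glycosylase that removes oxidised guanine, was at 9.94, 6.97 and 8.92 FPKM in control and 6.44, 6.92 and 6.05 FPKM in siRNA libraries. Control library 2 and siRNA library 2 of Ogg1 nearly met, and the log2 fold change was −0.35 (SE 0.13, adjusted p = 0.24).

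Ercc1, part of the nuclease that cuts beside a lesion in nucleotide excision repair, was at 15.1, 13.4 and 17.0 FPKM in control and 10.3, 12.7 and 12.9 FPKM in siRNA libraries. The groups were separate, with a log2 fold change of −0.32 (SE 0.12, adjusted p = 0.256). The helicases Ercc2 and Ercc3, which open the helix in the same pathway as subunits of the transcription factor TFIIH, overlapped at 8.62 to 11.4 FPKM and 12.5 to 16.8 FPKM. Xrcc1, the scaffold of single-strand break repair, was at 17.3, 16.1 and 18.9 FPKM in control and 13.7, 20.9 and 17.7 FPKM in siRNA libraries, so the siRNA libraries spread around the controls. Its partner ligase Lig3 lay between 11.7 and 14.1 FPKM. Apex1, the endonuclease that cuts at sites without a base, lay between 17.3 and 26.7 FPKM, and 877 of the 1422 bases of its exons are shared with Pip4p1 on the opposite strand.

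The 5 end joining genes had log2 fold changes from −0.11 to −0.02, all above the median of all entries. Their median was −0.04 in the deposited scaling, 0.06 under median-of-ratios scaling and 0.11 after removal of the ribosomal RNA entries. All 5 were negative here, but 2 were under median-of-ratios scaling and 0 after removal of the ribosomal RNA entries. None was called or had separated libraries. Xrcc6 and Xrcc5 encode the Ku proteins that hold a broken end. Xrcc6 was at 13.9, 14.2 and 15.0 FPKM in control and 13.7, 17.6 and 11.6 FPKM in siRNA libraries, so the siRNA libraries spread on both sides of the controls. Its log2 fold change was −0.02 (SE 0.14, adjusted p = 0.938, limma with the Benjamini-Hochberg method), with a sign that depended on the scaling. The ratio of Xrcc5 to Xrcc6 was 0.679, 0.643 and 0.682 in control and 0.692, 0.557 and 0.738 in siRNA libraries, with overlapping groups. Xrcc4, the partner of the ligase that seals the ends, was at 5.45, 5.02 and 5.69 FPKM in control and 4.14, 4.91 and 5.75 FPKM in siRNA libraries, with a log2 fold change of −0.11 (SE 0.12, adjusted p = 0.63). That ligase, Lig4, lay between 2.56 and 3.08 FPKM, and Prkdc, the kinase that joins Ku at the end, between 2.03 and 2.34 FPKM.

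Of the 7 genes of damage sensing and checkpoint signalling, none was called or had separated libraries, and the median log2 fold change was −0.05, or 0.04 under median-of-ratios scaling. Atm, the kinase that answers breaks through both strands, was at 6.24, 5.19 and 5.94 FPKM in control and 4.40, 5.73 and 4.77 FPKM in siRNA libraries. Its log2 fold change was −0.19 (SE 0.12, adjusted p = 0.413, limma with the Benjamini-Hochberg method). The complex of Mre11a, Rad50 and Nbn, which finds broken ends and activates Atm, had no member called, and its members had log2 fold changes of both signs. Mre11a, its nuclease, was at 6.92, 6.38 and 6.51 FPKM in control and 6.71, 7.68 and 7.36 FPKM in siRNA libraries, with a log2 fold change of 0.12 (SE 0.10, adjusted p = 0.524). Nbn, which binds Atm, was at 10.8, 13.0 and 16.0 FPKM in control and 9.47, 10.7 and 13.1 FPKM in siRNA libraries, with a log2 fold change of −0.23 (SE 0.16, adjusted p = 0.448). Rad50, which bridges the ends, lay between 5.47 and 6.78 FPKM. The kinase Atr, which answers stalled forks, ran from 1.80 to 3.95 FPKM within the controls alone, which covered all siRNA values. The checkpoint kinases Chek1 and Chek2 lay between 3.95 and 5.58 FPKM and between 4.11 and 6.22 FPKM, also with overlapping groups.

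The libraries of a group did not contribute alike. Among the controls, library 2 was the lowest for 35 of the 46 genes (76.1%, against 49.7% of all entries tested), and library 3 was the highest for 31 (67.4%, against 41.1%). Among the siRNA libraries, library 2 was the highest for 33 genes (71.7%, against 64.2%). Without control library 2, 23 of the 45 genes that then passed the filter had separated libraries on the lower side, and without siRNA library 2, 24 of 46 did, against 10 of 46 with all libraries. The same held for 36.4% and 42.4% of all entries. The median deviation of the 46 genes from their control mean, on the log2(FPKM + 1) scale, was 0.02, −0.12 and 0.09 in the controls and −0.20, −0.05 and −0.22 in the siRNA libraries. Over all entries it was 0.02, −0.04 and 0.03 in control and −0.13, −0.02 and −0.20 in siRNA libraries. S phase genes gave 0.13, −0.18 and 0.07 in control and −0.28, −0.22 and −0.31 in siRNA libraries. Control library 2 was thus the lowest control for the repair genes and for the S phase genes. siRNA library 2, which had the lowest share of ribosomal RNA entries of the siRNA libraries, lay nearest to the controls. The summed S phase genes were 565 to 701 FPKM in control and 477 to 528 FPKM with siRNA. None of the 26 was called, but 14 had every siRNA library below every control, and their median log2 fold change was −0.27. The summed G2 and M phase genes were 672 to 778 FPKM in control and 549 to 568 FPKM with siRNA. None of the 22 was called, but 19 were separated in that way, against 22.1% of all entries, with a median log2 fold change of −0.39. Under median-of-ratios scaling the medians were −0.15 for the S phase and −0.26 for the G2 and M phase genes. After removal of the ribosomal RNA entries they were −0.08 and −0.18. The part of these differences in the values of the repair genes was not tested.

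**Figure D5:**
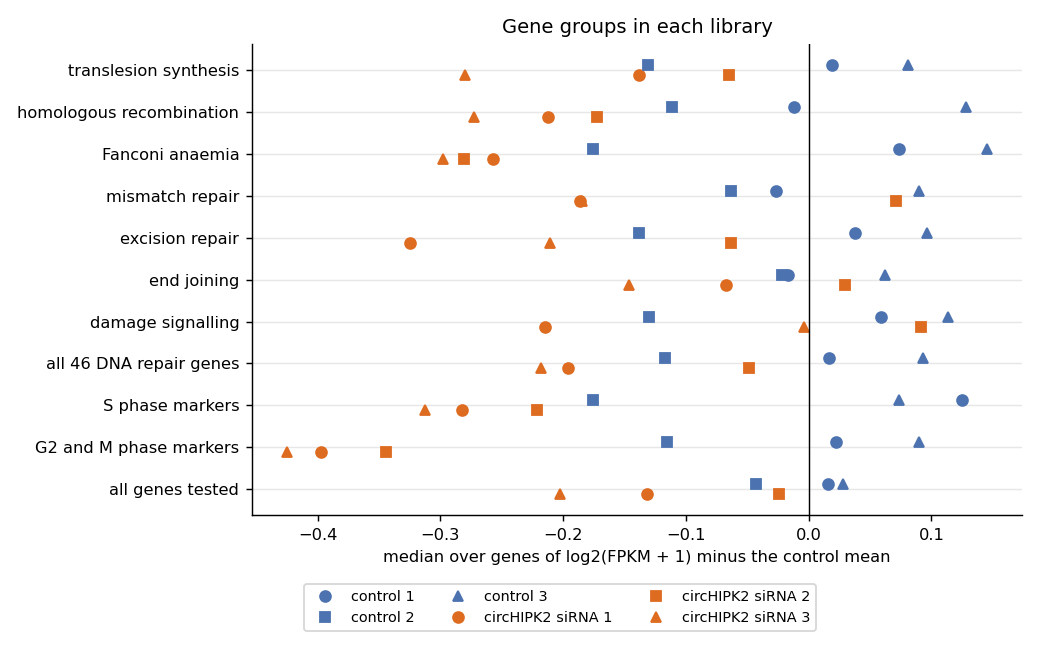
Median deviation of log2(FPKM + 1) from each gene's control mean (x axis) in each of the 6 libraries, for the 7 roles, all 46 DNA repair genes, the S phase and G2 and M phase lists, and all entries tested. Control library 2 (−0.12) is the lowest control for the repair genes, and siRNA library 2 (−0.05) is the highest siRNA library.

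The count of separated genes depended on the scaling. Under median-of-ratios scaling, which moved the median of all entries from −0.12 to −0.01, 7 of the 46 genes were separated on the lower side (Mad2l2, Rad18, Brca1, Bard1, Fancb, Parp1 and Ogg1), and 3 on the higher side (Rev1, Poli and Mre11a). Over all entries the shares were then 11.4% and 8.93%. After the 9 ribosomal RNA entries were removed and the columns rescaled, only Mad2l2 and Brca1 were separated on the lower side, against 4.29% of all entries, and Rev1, Poli and Mre11a on the higher side, against 14%. The median of the 46 genes was then 0.01, beside 0.06 for all entries. Under these settings Mad2l2 was no longer called, with log2 fold changes of −0.84 and −0.77, smaller than the −0.96 of the deposited scaling, and adjusted p of 0.154 and 0.2 (limma with the Benjamini-Hochberg method).

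Promoters were searched for letters bound by E2F factors, which drive genes of the cell cycle. In the RefSeq promoter table (GRCm38.p6), 37 of the 46 genes had a window, 6 of them with a pair of windows. The motifs TTTCCCGC, TTTCGCGC, TTTGCCGC and TTTGGCGC, on both strands of the 250 bases before a start, were found in 6 of the 43 windows (14%). They were in 3.47% of the windows of all genes tested and in 1.86% of all windows in the table. Another cell cycle motif, the CHR letters TTTGAA, was in 2.33% of the 43 windows, below the 10.2% of the windows of all genes tested. CCAAT was in 41.9% against 36%, the CRE letters TGACGTCA in 4.65% against 2.73% and the NRF1 motif in 4.65% against 1.69%. The 6 E2F stretches are shown as the sites that a test of such binding would address, each 5′ to 3′ on the strand of its gene, with the matching letters in capitals.
Brca2, chr5:150522442-150522471, plus strand: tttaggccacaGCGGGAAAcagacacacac
Bard1, chr1:71103163-71103192, minus strand: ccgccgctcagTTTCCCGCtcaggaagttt
Fancg, chr4:43010335-43010364, minus strand: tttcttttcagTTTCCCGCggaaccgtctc
Msh3, chr13:92355187-92355216, minus strand: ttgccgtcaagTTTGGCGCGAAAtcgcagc
Xrcc6, chr15:82016312-82016341, plus strand: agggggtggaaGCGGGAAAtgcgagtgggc
Chek2, chr5:110839820-110839849, plus strand: cgggattagccGCGGGAAAccaagacgtcg
The letters of Bard1 and Fancg read TTTCCCGC on the strand of the gene, those of Brca2, Xrcc6 and Chek2 match it on the opposite strand, and Msh3 holds overlapping matches on both strands. Of these 6 genes, Brca2 and Bard1 had separated libraries in the deposited values, both on the lower side, where 22.1% of all entries did. The match is a description of letters and was not tied to binding here.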

How the data were processed

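Expression was read from the FPKM values that the authors deposited per gene symbol and library. The submitters' processing notes name HISAT, StringTie, edgeR and the mm9 build. Versions, annotation, and any use of strand or of molecular identifiers in counting were not given in the sources used here. Values were kept as deposited and set on the log2(FPKM + 1) scale, which understates differences between low values. Entries averaging at least 1 FPKM were kept, 13702 in all. The 3 siRNA libraries were compared with the 3 control libraries by limma 3.58.1 (R 4.3.3, with a mean-variance trend). P-values were two-sided, adjusted by the Benjamini-Hochberg method across those entries, and called below 0.05. Ratios are of group means in FPKM. The steps were tested on simulated data.

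The genes and lists were chosen with earlier results of these data known, so no list was tested. Given in full were genes called and, in each role, those with the smallest p in each direction and the highest mean. Of the other repair genes, those with the 3 smallest p in each direction were named. Draxin and Fbxo6 were named for their position, and further genes by their values.

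Depth was estimated from the spacing of low values among genes that have 1 transcript, of 500 nt or longer, within a fixed range of depths. A doubled depth, which also matched in part, lay outside that range. At the estimated depths 33.5% to 36.4% of the low values lay within 0.05 of a whole number of fragments, against 10% by chance. The fragment numbers of the genes rest on this estimate. Symbols were matched to GENCODE M21 (98.54% of entries) for transcripts and exon overlaps, and 22 of the 46 genes share exon bases with another gene. Promoters came from RefSeq on GRCm38.p6, a later build than mm9, and 9 of the 46 genes had no window. The 18 alternatives changed the pseudocount, filter, scaling, moderation, weights or block, or left out 1 library.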

Additional observations from a re-analysis of the deposited data

How the results depend on the processing

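The number of repair genes called lower was 0 with a pseudocount of 0.1 or 0.5, without the filter, under median-of-ratios scaling, under quantile normalization, after removal of the ribosomal RNA entries, without the trend, and with any library left out. Adjusted p of Mad2l2 was then 0.0511 to 0.2 (limma, Benjamini-Hochberg). It stayed below 0.05 with a mean of at least 5 FPKM (0.0427), rescaled columns (0.0393), robust moderation (0.0459), library weights (0.0161) and the replicate block (0.0430). With library weights 4 of the other repair genes were called lower and 1 higher, while calls over all entries went from 19 to 265 lower and from 16 to 55 higher.

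Genes separated on the lower side numbered 4 of 24 with a mean of at least 5 FPKM (25.7% of all entries), and 2 after removal of the ribosomal RNA entries (4.29%). With 1 library left out they numbered 11 to 24. The shares of all entries then ran from 24.1%, in the run with 14 genes, to 42.4%, in the run with 24. On the higher side they numbered 3 under median-of-ratios scaling (8.93%), quantile normalization (9.8%) or removal of the ribosomal RNA entries (14%), and 1 with rescaled columns (3.25%). With 1 library left out they numbered 0 to 2. The shares of all entries then ran from 3.42% to 6.27%, with 0 genes separated in the run at either end. The median of the 46 genes was −0.057 under median-of-ratios scaling and 0.013 after the removal. Fewer genes were tested under the higher minimum, and fewer libraries compared when 1 was left out. The cause of the other shifts was not tested.

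The sign of small differences turned. Fancd2 was at 0.041 under median-of-ratios scaling, at 0.043 under quantile normalization and at 0.11 after the removal, and ran from −0.20 to 0.067 with 1 library left out, being positive without control library 3 (0.031) or siRNA library 3 (0.067). Msh6 was at 0.031, 0.045 and 0.11 under those 3 settings, and Xrcc4 at 0.062 after the removal. Xrcc6 was at 0.091, 0.10 and 0.17 under them, at 0.0050 with rescaled columns, and ran from −0.18 to 0.11 with 1 library left out, being positive without control library 3 (0.0036) or siRNA library 3 (0.11). The cause was not tested.

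With 3 libraries per group, whether the replicate numbers pair the libraries could not be told. Deviations of same-numbered libraries correlated at 0.046, 0.015 and 0.133 across genes, and not every library correlated best with its own number. With the replicate block 1 repair gene was called lower, and calls over all entries numbered 23 lower and 23 higher, against 19 and 16 without it. Palb2, Fancb and Fancc, at means of 1.09, 1.20 and 1.27 FPKM over the 6 libraries, rested on small numbers of fragments. The part of this in their spread between libraries was not tested.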

Other observations

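A wider list of 111 other DNA repair genes, chosen with earlier results known, was read in the same way. Of these 110 had an entry, 103 passed the filter, and 0 were called in either direction (limma with the Benjamini-Hochberg method). Without adjustment, p was below 0.05 for 17 on the lower and 2 on the higher side, against 15.5% and 1.83% of all entries. The libraries were separated for 23 of the 103 on the lower and 1 on the higher side, against 22.1% and 2.65% of all entries, and the median log2 fold change was −0.14, near the −0.12 of all entries. Pcna, the sliding clamp that holds polymerases on DNA and that Rad18 ubiquitinates, was at 154, 125 and 130 FPKM in control and 100, 96.1 and 90.7 FPKM in siRNA libraries. Its libraries were separate, with a log2 fold change of −0.51 (SE 0.11, adjusted p = 0.137). Rad51ap1, a gene of homologous recombination, was at 8.13, 8.34 and 9.30 FPKM in control and 5.84, 6.26 and 5.69 FPKM in siRNA libraries, with a log2 fold change of −0.47 (SE 0.10, adjusted p = 0.128). Uimc1, which brings a Brca1 complex to ubiquitin chains at breaks, was at 66.6, 78.7 and 70.1 FPKM in control and 48.1, 51.4 and 55.2 FPKM in siRNA libraries, with a log2 fold change of −0.47 (SE 0.11, adjusted p = 0.139). None of these 3 passed the adjusted threshold.

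On the higher side, Ercc6, which couples nucleotide excision repair to transcription, was at 1.97, 2.51 and 1.94 FPKM in control and 3.76, 3.10 and 3.73 FPKM in siRNA libraries. It was the single gene of this wider list with separated libraries on that side, with means of 2.14 ± 0.321 and 3.53 ± 0.372 FPKM (SD, n = 3 each) and a log2 fold change of 0.53 (SE 0.12, adjusted p = 0.144, limma with the Benjamini-Hochberg method). Dclre1c, the nuclease Artemis of end joining, had a log2 fold change of 0.43 (SE 0.17, adjusted p = 0.26), and Parg, which removes the poly(ADP-ribose) that Parp1 makes, had 0.17 (SE 0.10, adjusted p = 0.403). The libraries of both overlapped.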
